A study of Homo sapiens with 9 samples.

Results

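The HER family of receptor tyrosine kinases, the proteins that restrain it and the adaptor GRB7 were followed through 10 genes. These were matched by symbol among the 18404 genes with a single symbol on the array. They were the receptor genes ERBB2, EGFR, ERBB3 and ERBB4, the inhibitor gene ERRFI1, the genes LRIG1 and LRIG3, the ubiquitin ligase genes CBL and CBLB, and the adaptor gene GRB7. Each was read by 1 transcript cluster, the set of probes that the array summarises for a gene. RNA came from MCF10A, a widely used human breast epithelial cell line that does not form tumors, in 3 groups of 3 arrays. The control cells carried an empty vector per the design text and are called parental in another label. WT-HER2 cells expressed wild-type HER2, and Delta-HER2 cells expressed the splice variant Delta-HER2, known to lack a short extracellular stretch next to the membrane. The growth medium held 5% horse serum, EGF (the ligand of EGFR) at 20 ng/ml, hydrocortisone, cholera toxin and insulin, and before RNA was taken the cells spent 16 hours in basal medium for which the labels list antibiotics and no serum or growth factor. The promoter of the transgenes, and whether each line was a clone or a pool, are not given in the sources used here. The labels do not say whether replicates came from independent cultures, and the p-values therefore cover only the spread between these arrays, which may be technical.

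HER receptors signal as pairs. EGFR, HER3 and HER4 are opened by ligands of the EGF and neuregulin families, whereas HER2 has no known ligand and serves as the favoured partner of the others, and HER3 has an impaired kinase and signals by recruiting PI3-kinase. Several proteins end the signal: the ERRFI1 product (MIG6) clamps the kinase domains of active receptors, CBL proteins attach ubiquitin to them, and LRIG1 lowers receptor amounts at the cell surface.

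To show the DNA in front of the members, the 250 bases before their RefSeq start sites were read (build GRCh38.p14). Of the 10 genes, 7 had such a window, 16 windows in all, and ERBB3, CBL and GRB7 had none. The lines below give ERBB2 and EGFR as receptor genes with a window that moved in opposite directions, and ERRFI1 and CBLB as the regulators that did so. The ERBB2 window is that of the native gene, and the promoter of the transgenes is not given. Whether this window precedes the ERBB2 RNA that rose was not tested. Capitals mark matches on either strand to an AP-1 motif (TGANTCA), an ETS motif (CCGGAAG), a forkhead motif (GTAAACA), a cyclic AMP response motif (TGACGTCA) or a GC box (GGGCGG). For genes with several start sites the first listed window is shown for EGFR and the one with most matches, picked after the search, for CBLB.
ERBB2, chr17:39687844-39688093, plus strand: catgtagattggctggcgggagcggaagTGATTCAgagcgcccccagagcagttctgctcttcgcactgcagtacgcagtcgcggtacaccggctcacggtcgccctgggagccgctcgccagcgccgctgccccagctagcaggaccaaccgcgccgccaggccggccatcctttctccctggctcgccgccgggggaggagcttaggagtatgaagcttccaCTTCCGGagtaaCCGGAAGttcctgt
EGFR, chr7:55018767-55019016, plus strand: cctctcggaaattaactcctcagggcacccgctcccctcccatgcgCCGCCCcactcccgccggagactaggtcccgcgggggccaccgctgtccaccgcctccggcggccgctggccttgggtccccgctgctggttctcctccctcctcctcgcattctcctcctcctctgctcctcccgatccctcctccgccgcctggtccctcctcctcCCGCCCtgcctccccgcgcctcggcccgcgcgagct
ERRFI1, chr1:8026310-8026559, minus strand: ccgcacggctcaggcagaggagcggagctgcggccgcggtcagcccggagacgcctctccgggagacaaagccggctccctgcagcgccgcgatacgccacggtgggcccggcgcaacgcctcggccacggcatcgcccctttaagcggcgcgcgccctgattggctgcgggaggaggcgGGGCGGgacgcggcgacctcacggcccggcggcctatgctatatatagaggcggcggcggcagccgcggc
CBLB, chr3:105869013-105869262, minus strand: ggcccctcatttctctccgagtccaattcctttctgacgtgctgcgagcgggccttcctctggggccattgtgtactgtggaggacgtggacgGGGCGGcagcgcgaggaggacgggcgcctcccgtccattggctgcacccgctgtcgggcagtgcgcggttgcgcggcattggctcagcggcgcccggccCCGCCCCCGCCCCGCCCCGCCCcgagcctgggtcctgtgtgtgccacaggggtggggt

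The ERBB2 window held 2 ETS matches, whose first bases lie at -26 and -14 relative to the start site, and 1 AP-1 match. Of 35116 RefSeq windows of this length, 8.52% held the ETS motif and 6.57% the AP-1 motif. The EGFR window had 2 GC boxes, that of ERRFI1 had 1 and the CBLB window had 5, of which 2 pairs overlapped. GC boxes were in 42.6% of all windows, the forkhead motif in 2.98% and the cyclic AMP response motif in 1.65%, and the last 2 motifs were in none of the 16 member windows. The second EGFR window, not shown, held 2 AP-1 matches and no GC box, and of the other 4 CBLB windows 1 held a GC box and 3 held no match. These matches describe letters in a window and were not tied to the expression values.

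The deposited log2 values had array medians between 4.04 and 4.18. Precision is set by having 3 arrays a group, and SE below stands for the standard error of a log2 difference. The second axis of variation over all genes, with 16.6% of the variance, gave scores of 32.1 to WT-HER2 replicate 3 and 10.3 to control replicate 1. The rest of both groups scored from -18.3 to -3.5. Several results that move without this pair, WT-HER2 replicate 3 and control replicate 1, are therefore given in that form too. Delta-HER2 replicate 2 scored 8.6 on this axis, against -5.0 and -2.6 for the rest of its group, and stays in when the pair is left out. A background bound of 3.17 log2 was taken from 340 olfactory receptor genes, as the 0.95 quantile of their group means. All 9 measured genes of the basal mammary epithelium list lay above it in every group. They include KRT5, CDH3, the member EGFR and CDH1, a general epithelial gene. At an adjusted p below 0.05 in limma, 1 of the 9 was called higher and 2 lower in each comparison with control. Over all genes, 1.68% were called with WT-HER2 and 25.4% with Delta-HER2. Means in control, WT-HER2 and Delta-HER2 were 9.09, 8.76 and 8.06 for CDH1, 10.12, 9.44 and 10.17 for KRT14, and 9.35, 9.73 and 9.80 for LAMB3. The summed level of the basal list ranged from 13.41 to 13.49 log2 on control arrays, from 13.30 to 13.34 on WT-HER2 arrays and from 13.30 to 13.33 on Delta-HER2 arrays. The luminal list had 6 of 7 markers above the bound. Its summed level ranged from 11.24 to 11.25, from 11.33 to 11.48 and from 11.39 to 11.51 in the same group order. In limma 1 luminal marker was called higher in each comparison with control, and 1 was lower with Delta-HER2. GATA3 had means of 7.48, 7.22 and 6.45 in that order, and KRT18 of 9.98, 10.32 and 10.50. LUM and PDGFRA (fibroblast), PTPRC and CD3E (blood) and VWF and TEK (endothelium) were under the bound in every group; in at least 1 group, 5 of 7 fibroblast, 3 of 5 blood and 1 of 5 endothelial markers were above it, and PECAM1 (endothelium) reached a mean of 3.90 in Delta-HER2 cells. The summed level of the fibroblast list ranged from 7.88 to 8.07 log2 on control arrays, from 8.23 to 8.33 on WT-HER2 arrays and from 7.71 to 7.88 on Delta-HER2 arrays, and DCN and COL1A1 were its highest members. The summed blood list ranged from 8.58 to 8.63, from 8.82 to 8.95 and from 8.50 to 8.68 in the same order, led by CD14. The part of these sums in the results was not tested.

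Delta-HER2 cells differed from control cells in 6 of the 10 genes and WT-HER2 cells in 1, at an adjusted p below 0.05 in limma. Both counts include ERBB2, the gene carried by the transgenes, whose rise was built into the design. Over all genes tested, 25.4% were called in the first comparison and 1.68% in the second, and the members were chosen with such results known, so their shares are given as a description. With Delta-HER2, ERBB2 and ERRFI1 rose, where 13.6% of all genes rose, and EGFR, ERBB3, CBLB and GRB7 fell, where 11.7% of all genes did. With WT-HER2, ERBB2 rose and 0 members fell (2 of the 10 were at an unadjusted p below 0.05 in limma), beside 0.777% of all genes called higher and 0.902% called lower. The same 6 genes were called between Delta-HER2 and WT-HER2 cells, where 22.8% of all genes were. There again 2 were higher and 4 lower, beside 13.4% and 9.35% of all genes. The arrays of the groups did not overlap for 6 of the 10 genes with Delta-HER2 against control (6814 of all 18404 genes), for 4 with WT-HER2 against control (2582 of all) and for 7 between the HER2 lines (6378 of all). The median difference of the 10 genes from control was -0.12 with WT-HER2 and -0.08 with Delta-HER2, beside 0.01 and -0.01 over all genes. The 2 comparisons with control share their control arrays.

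**Figure D1:**
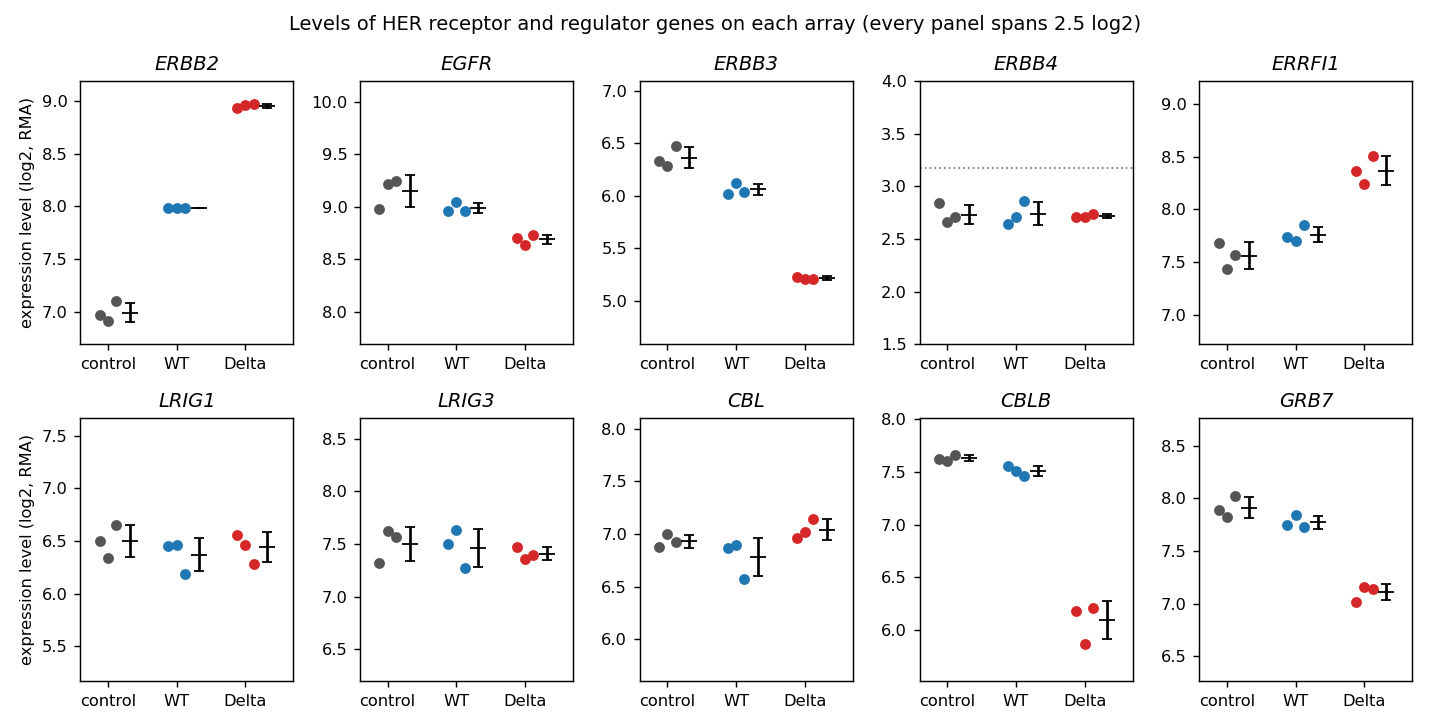
Expression levels (log2, RMA) of the 10 genes on each array, in control (grey), WT-HER2 (blue) and Delta-HER2 (red) cells; black bars are the mean ± SD of 3 arrays, every panel spans the same height, and the dotted line is the background bound. ERBB2, EGFR, ERBB3, ERRFI1, CBLB and GRB7 had Delta-HER2 arrays clear of all others, and ERBB4 stayed under the bound on all 9 arrays.

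Among the receptors, ERBB2 was the gene carried by the transgenes. Its log2 level was 6.97, 6.91 and 7.10 on the control arrays, 7.98 on each WT-HER2 array, and 8.93, 8.96 and 8.97 on the Delta-HER2 arrays. The 3 groups lay in steps with no overlap. The array gives 1 value for the gene, in which native and transgene transcripts, or variant and full-length forms, are not separated. The difference from control was 0.99 (SE 0.07, adjusted p = 1.99e-04) with WT-HER2 and 1.96 (SE 0.07, adjusted p = 1.82e-07) with Delta-HER2. The identical WT-HER2 values, a feature shared by 254 of the genes tested, add no spread. With 2 of these 3 values set to missing, so that the spread of ERBB2 came from control and Delta-HER2 arrays, the adjusted p was 0.00664 for WT-HER2 against control and 4.90e-04 between the HER2 lines.

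ERBB3 encodes the partner that couples HER2 to PI3-kinase. ERBB3 was read at log2 levels of 6.33, 6.28 and 6.47 on the control arrays, 6.02, 6.12 and 6.04 on those of WT-HER2, and 5.23, 5.21 and 5.21 on those of Delta-HER2. Every array of a group was below every array of the group before it, in the order opposite to that of ERBB2. ERBB3 was 2.21-fold lower with Delta-HER2 than in control (log2 difference -1.14, SE 0.07, adjusted p = 3.60e-06) and 1.80-fold lower than with WT-HER2 (-0.85, adjusted p = 2.65e-05). The difference with WT-HER2 was -0.30 (95% confidence interval -0.46 to -0.14) and did not pass over all genes (adjusted p = 0.0902). In bulk RNA, fewer cells that express a gene and less RNA per cell cannot be told apart.

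EGFR, the receptor of the EGF that the growth medium held but that is not listed for the last 16 hours, moved less. EGFR stood at log2 levels of 8.98, 9.22 and 9.25 on the control arrays, 8.96, 9.05 and 8.96 on those of WT-HER2, and 8.70, 8.64 and 8.73 on those of Delta-HER2. The Delta-HER2 arrays were the 3 lowest, while control replicate 1 lay among the WT-HER2 arrays. EGFR fell by 0.46 with Delta-HER2 against control (SE 0.08, adjusted p = 0.00280). Against WT-HER2 it fell by 0.30 (adjusted p = 0.0301), a call lost without WT-HER2 replicate 1 (adjusted p = 0.0598) or 2 (0.0975), or without Delta-HER2 replicate 1 (0.0784), 2 (0.092) or 3 (0.0624). It was also lost with the replicate number as a block (0.0587). Without WT-HER2 replicate 3 and control replicate 1 together the EGFR difference between the lines was -0.31 (adjusted p = 0.00976 in limma). With WT-HER2 against control the difference was -0.16, with an interval from -0.35 to 0.03.

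ERBB4, the other neuregulin receptor, had means of 2.73 ± 0.09 (control), 2.74 ± 0.11 (WT-HER2) and 2.72 ± 0.02 (Delta-HER2; SD, n = 3). All of its 9 values, from 2.64 to 2.86, were under the background bound, so no level above background was measured in any group.

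**Figure D2:**
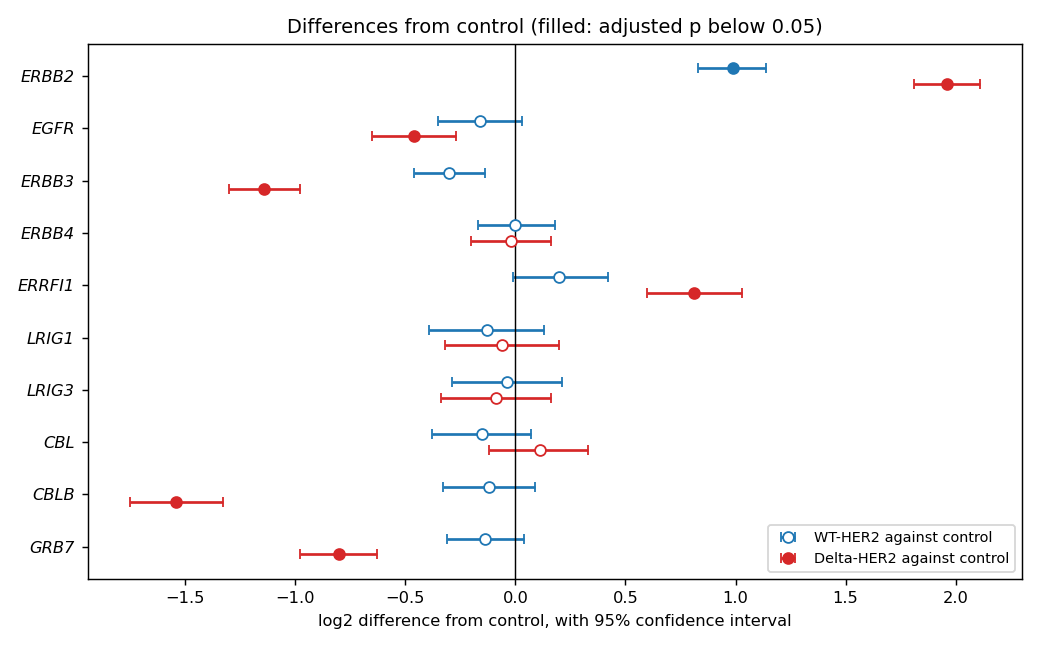
Log2 differences of the 10 genes from control (x axis) with 95% confidence intervals from limma, for WT-HER2 (blue) and Delta-HER2 (red); filled points passed the adjusted p threshold. With Delta-HER2 the intervals of 6 genes lay away from 0, from -1.54 for CBLB to 1.96 for ERBB2, and with WT-HER2 those of ERBB2 and ERBB3 did, of which ERBB2 passed the test over all genes.

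The regulators split in direction with Delta-HER2. ERRFI1, an inhibitor gene that growth factor signaling itself induces, had log2 levels of 7.68, 7.43 and 7.57 on the control arrays, 7.74, 7.70 and 7.85 on those of WT-HER2, and 8.37, 8.24 and 8.51 on those of Delta-HER2. The Delta-HER2 arrays were the highest, and every WT-HER2 array was above every control array by a narrow margin. ERRFI1 rose 1.75-fold with Delta-HER2 against control (log2 difference 0.81, SE 0.10, adjusted p = 1.76e-04) and 1.52-fold against WT-HER2 (0.61, adjusted p = 0.00126). With WT-HER2 against control the difference was 0.20 (interval -0.01 to 0.42, adjusted p = 0.475).

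CBLB showed the largest decrease of the 10 genes. CBLB was read at log2 levels of 7.62, 7.60 and 7.66 on the control arrays, 7.56, 7.51 and 7.46 on those of WT-HER2, and 6.18, 5.87 and 6.21 on those of Delta-HER2. The Delta-HER2 arrays lay more than 1 log2 under all others, with replicate 2 the lowest. CBLB was 2.91-fold lower with Delta-HER2 than in control (log2 difference -1.54, SE 0.09, adjusted p = 3.05e-06) and 2.68-fold lower than with WT-HER2 (-1.42, adjusted p = 6.20e-06). With WT-HER2 against control the arrays did not overlap either, but the difference was -0.12 (interval -0.33 to 0.09, adjusted p = 0.709).

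CBL, the other ubiquitin ligase gene among the members, did not follow CBLB. CBL stood at log2 levels of 6.88, 7.00 and 6.92 on the control arrays, 6.87, 6.90 and 6.57 on those of WT-HER2, and 6.96, 7.02 and 7.14 on those of Delta-HER2. The control and Delta-HER2 arrays overlapped, and WT-HER2 replicate 3 was the lowest of all. The difference with Delta-HER2 against control was 0.11 (interval -0.12 to 0.33), which lies apart from the interval of CBLB (-1.75 to -1.33). Between Delta-HER2 and WT-HER2 it was 0.26 (adjusted p = 0.0989), and 0.16 without WT-HER2 replicate 3 and control replicate 1 (adjusted p = 0.196).

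LRIG1 and LRIG3, which encode membrane proteins with leucine-rich repeats, gave no call in any comparison. LRIG1 had log2 levels of 6.50, 6.34 and 6.65 in control, of 6.45, 6.46 and 6.19 with WT-HER2, and of 6.56, 6.46 and 6.28 with Delta-HER2. Its difference with Delta-HER2 against control was -0.06, with an interval from -0.32 to 0.20. LRIG3 had means of 7.50 ± 0.16, 7.46 ± 0.18 and 7.41 ± 0.06 (SD, n = 3), and a difference of -0.09 (interval -0.34 to 0.16) in the same comparison. Without WT-HER2 replicate 3 and control replicate 1 this LRIG3 difference was -0.19 (adjusted p = 0.0898 in limma). Control replicates 2 and 3, at 7.62 and 7.57, were above the highest Delta-HER2 array, at 7.47. WT-HER2 replicate 3 was the lowest array of both genes, at 6.19 and 7.27. With all 9 arrays the groups overlapped for both genes, and changes within these intervals were not detectable with 3 arrays a group. LRIG2, the remaining gene of that family and picked for this relation after its values were seen, differed by -0.41 with WT-HER2 (adjusted p = 0.317) and -0.36 with Delta-HER2 (adjusted p = 0.118). Without WT-HER2 replicate 3 and control replicate 1 the latter was -0.49 (adjusted p = 0.00264).

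GRB7 encodes an adaptor that binds phosphorylated HER2 and lies beside ERBB2 on chromosome 17, where the genes are often amplified together in breast cancer. GRB7 was read at log2 levels of 7.89, 7.82 and 8.02 on the control arrays, 7.75, 7.84 and 7.73 on those of WT-HER2, and 7.01, 7.16 and 7.14 on those of Delta-HER2. The Delta-HER2 arrays were clear of the others and WT-HER2 arrays overlapped with control. GRB7 was 1.75-fold lower with Delta-HER2 than in control (log2 difference -0.80, SE 0.08, adjusted p = 5.07e-05) and 1.59-fold lower than with WT-HER2 (-0.67, adjusted p = 2.13e-04). With WT-HER2 against control the difference was -0.14 (interval -0.31 to 0.04).

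The genes around ERBB2 moved in both directions with Delta-HER2. Of the 24 measured genes nearest to ERBB2, 12 on each side in the RefSeq order, limma called 0 with WT-HER2 (4 at an unadjusted p below 0.05; highest difference 0.33). With Delta-HER2, 3 were higher and 4 lower, among them GRB7, which is 7 of 24 beside 25.4% of all genes called; with WT-HER2 1.68% of all genes were called. Their median difference was 0.04 with WT-HER2 and -0.01 with Delta-HER2. PGAP3 and MIEN1, the measured genes on either side of ERBB2, differed by 0.01 and -0.26 with Delta-HER2 (adjusted p = 0.955 and 0.0987). In the listed set of 15 measured neighbours, FBXL20 fell by 0.67 (adjusted p = 0.00160) and PSMD3, a proteasome gene, rose by 0.28 (adjusted p = 0.0258). The PSMD3 call was lost without any 1 control array and without replicate 1 or 3 of Delta-HER2, at adjusted p from 0.0624 to 0.0836, and with the replicate block (0.0595).

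**Figure D3:**
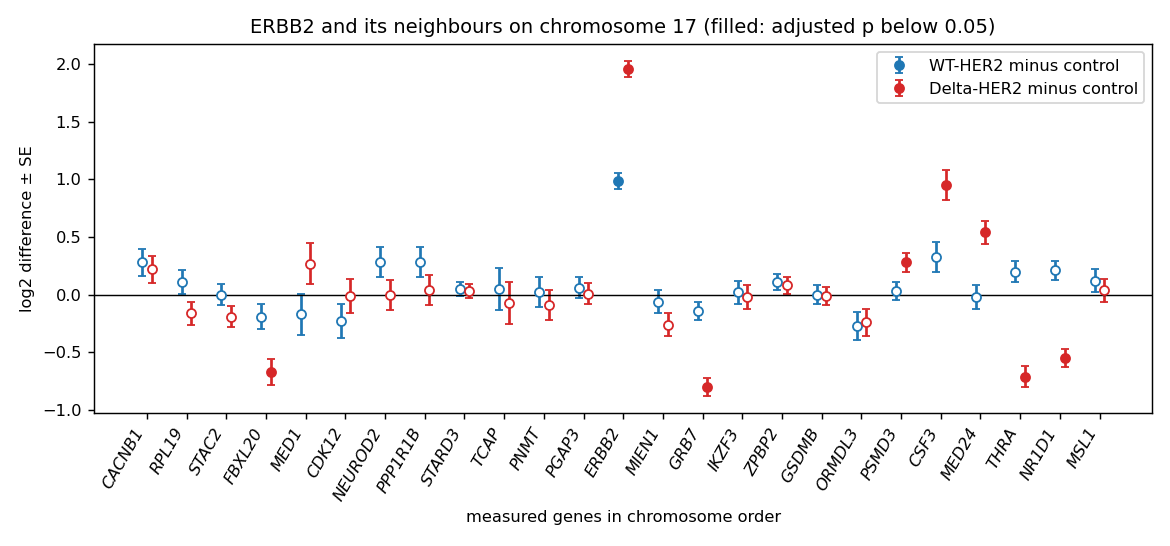
Log2 difference from control ± SE (y axis) of ERBB2 and the 12 nearest measured genes on each side, in chromosome order (x axis), for WT-HER2 (blue) and Delta-HER2 (red); filled points passed the adjusted p threshold. ERBB2 stands at 0.99 and 1.96, while its neighbours ranged from -0.27 to 0.33 with WT-HER2 and from -0.80 to 0.95 with Delta-HER2.

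Among 20 measured genes of ubiquitin ligases, phosphatases, adaptors (SH3KBP1 and CD2AP) and LRIG and SOCS proteins beside the members, 3 rose and 2 fell with Delta-HER2. These were 5 of 20 beside 25.4% of all genes called. With WT-HER2 0 passed limma (3 at an unadjusted p below 0.05). CBLC, the remaining ubiquitin ligase gene of the CBL family, rose by 0.89 with Delta-HER2 (SE 0.08, adjusted p = 3.00e-05), opposite to CBLB. Its levels were 4.08, 3.97 and 3.95 in control and 4.94, 4.96 and 4.76 in Delta-HER2 cells, with WT-HER2 arrays between them. UBASH3B, a phosphatase gene whose product binds CBL, rose by 1.46 (SE 0.07, adjusted p = 7.70e-07), from a mean of 3.57 to 5.03. The receptor phosphatase gene PTPRK fell by 0.74 (adjusted p = 2.32e-04). The other 2 calls, named after their values were seen, were a rise of the phosphatase gene PTPN1 (0.48, adjusted p = 6.75e-04) and a fall of the ubiquitin ligase gene NEDD4 (-0.83, adjusted p = 0.00277). NEDD4 differed by -0.99 without WT-HER2 replicate 3 and control replicate 1 (adjusted p = 2.76e-04 in limma). The list's median was -0.07 with WT-HER2 and 0.00 with Delta-HER2. Without WT-HER2 replicate 3 and control replicate 1, 3 rose and 5 fell with Delta-HER2. Calls over all 18404 genes grew too in that setting, from 4669 to 5402 (2728 higher, 2674 lower).

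Of 18 measured adaptors and effectors that dock at activated receptors, 3 rose and 8 fell with Delta-HER2, beside 13.6% of all genes called higher and 11.7% called lower, and the list's median was -0.12. SHC1, which links receptors to RAS, had log2 levels of 8.71, 8.59 and 8.61 on the control arrays, 8.97, 8.94 and 8.92 on those of WT-HER2, and 9.75, 9.80 and 9.76 on those of Delta-HER2. It rose by 1.13 with Delta-HER2 (SE 0.06, adjusted p = 1.84e-06). With WT-HER2 it rose by 0.30 (adjusted p = 0.0498), the single call of the list there, and that call was lost when any 1 of the 9 arrays was left out (adjusted p up to 0.203) and with the replicate block (0.186). PTPN11, which encodes the phosphatase SHP2, rose by 0.55 with Delta-HER2 (adjusted p = 5.74e-04) and the docking protein gene GAB2 fell by 0.54 (adjusted p = 4.55e-04). The third gene that rose was GRB2 (0.27, adjusted p = 0.0254), named after its value was seen; this call was lost without any 1 control or Delta-HER2 array (adjusted p from 0.0576 to 0.0807). GRB10 and GRB14, relatives of GRB7 named in the same way, differed by 0.21 (adjusted p = 0.121) and 0.17 (adjusted p = 0.271) with Delta-HER2, where GRB7 fell. The count of 11 called genes was 7 without control replicate 2, control replicate 3 or Delta-HER2 replicate 1. Calls over all genes were 3805, 3844 and 3810 in these settings, in place of 4669.

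Among 12 binding partners and chaperones of HER2 and HER3, MUC1 fell in both lines. MUC1, a membrane mucin gene, had log2 levels of 8.49, 8.46 and 8.65 on the control arrays, 7.78, 7.55 and 7.60 on those of WT-HER2, and 7.38, 7.68 and 7.51 on those of Delta-HER2. It fell by 0.88 with WT-HER2 (SE 0.10, adjusted p = 0.00272) and by 1.01 with Delta-HER2 (SE 0.10, adjusted p = 6.07e-05), and the lines differed by -0.12 (adjusted p = 0.462). With Delta-HER2, 3 of the 12 rose and 2 fell, beside 13.6% and 11.7% of all genes. HSP90AA1, the chaperone gene on whose product HER2 depends for stability, rose by 1.11 (adjusted p = 8.78e-06), and PA2G4, which encodes a HER3-binding protein, rose by 1.13 (adjusted p = 7.91e-06). TOB1, an antiproliferative gene first found through HER2 binding, was 0.61 log2 lower with Delta-HER2 than with WT-HER2 (log2 difference -0.61, adjusted p = 6.74e-04). The list's median was 0.05 with WT-HER2 and 0.06 with Delta-HER2.

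The 18 genes of endocytic sorting, which carries receptors to degradation or recycling, had calls in both directions. With WT-HER2 0 passed limma (0 at an unadjusted p below 0.05), and with Delta-HER2 2 rose and 2 fell, 4 of 18 beside 25.4% of all genes called. The clathrin heavy chain gene CLTC rose by 0.34 (adjusted p = 0.0127) and AP2A1, an adaptor gene of clathrin pits, fell by 0.43 (adjusted p = 0.00118). The other calls, EPS15 and RAB7A, had differences of -0.20 (adjusted p = 0.0371) and 0.30 (adjusted p = 0.0427). Averaged over its transcript clusters, RAB7A differed by 0.01. The count of 4 was 2 without control replicate 1, 2 or 3, WT-HER2 replicate 2, or Delta-HER2 replicate 1, 2 or 3, with the replicate block and with median centring; in each of these EPS15 and RAB7A lost the call. It was 6 (2 higher, 4 lower) without WT-HER2 replicate 3 and control replicate 1 together, and 6 with array weights and after quantile normalization. Calls over all genes were 5402, 6126 and 4977 in these settings, beside 4669 in the main fit. Where the count was 2 with 1 array left out, calls over all genes ranged from 3805 to 4435.

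Of 16 other receptor tyrosine kinase genes measured, 2 rose and 6 fell with Delta-HER2, beside 13.6% of all genes called higher and 11.7% called lower, with a median of 0.00, and with WT-HER2 0 passed limma (3 at an unadjusted p below 0.05). MST1R, the receptor gene of macrophage-stimulating protein, rose by 0.79 (SE 0.08, adjusted p = 1.00e-04). The insulin receptor gene INSR fell by 0.64 (SE 0.10, adjusted p = 9.62e-04). The collagen receptor gene DDR1 fell by 0.48 (adjusted p = 3.56e-04), and by 0.91 (adjusted p = 0.0291) when its transcript clusters were averaged. AXL was 0.67 log2 lower with Delta-HER2 than with WT-HER2 (log2 difference -0.67, adjusted p = 7.83e-05).

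The direct comparison of Delta-HER2 with WT-HER2 cells tests where the lines differ from each other. ERBB2 itself was 0.98 log2 higher with Delta-HER2 than with WT-HER2 (adjusted p = 8.57e-06 in limma). In this comparison the form of HER2, the amount of ERBB2 RNA and other differences between the lines cannot be told apart. There UBASH3B was 1.53 higher (adjusted p = 9.31e-07), HSP90AA1 1.36 higher (adjusted p = 3.79e-06) and PA2G4 1.05 higher (adjusted p = 1.67e-05) on the log2 scale. CBLC was 0.60 higher (adjusted p = 4.25e-04), and GAB2 fell by 0.63 (adjusted p = 2.23e-04). By list, of 18 adaptors and effectors 4 rose and 3 fell. Of 20 genes in the ubiquitin ligase and phosphatase list 3 rose and 2 fell, and of 12 binding partners and chaperones 3 rose and 1 fell. Of the 16 other receptor tyrosine kinases 2 rose and 5 fell. Of the 18 endocytic genes 2 rose and 2 fell, and of the 15 listed neighbours 1 rose and 1 fell. Over all genes, 22.8% were called in this comparison, 13.4% higher and 9.35% lower. The list medians lay between -0.15 and 0.05, beside -0.04 over all genes. The 7 called adaptors and effectors became 11 after quantile normalization and 12 with array weights. Calls over all genes went from 4191 to 4507 and 5284 in these settings. The 4 called endocytic genes became 2 without control replicate 3, WT-HER2 replicate 2, or replicate 1 or 3 of Delta-HER2. Their count was also 2 with the replicate block and with only the 2 groups fitted, where 3456 and 3766 of all genes were called. The 2 called neighbours became 1, FBXL20, when any 1 array other than WT-HER2 replicate 1 was left out. The same held without WT-HER2 replicate 3 and control replicate 1 together, after quantile normalization and with median centring. It held too with the replicate block and with only the 2 groups fitted.

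**Figure D4:**
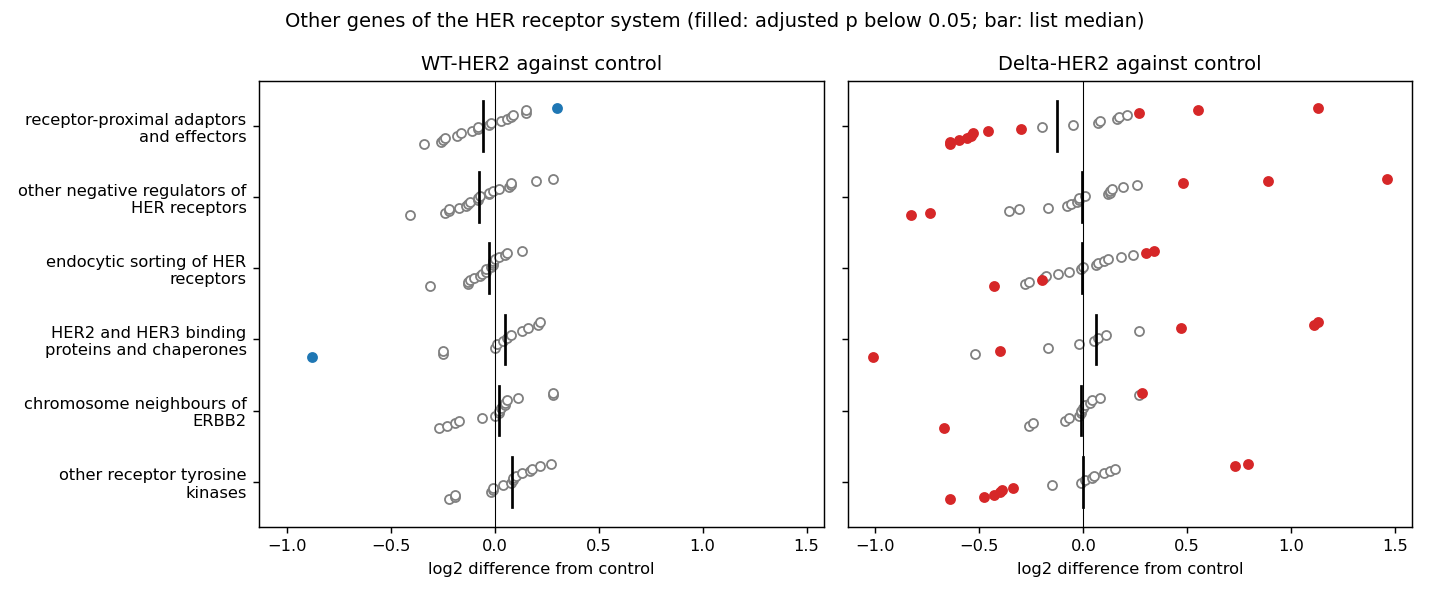
Log2 difference from control (x axis) of each gene in 6 lists of the HER receptor system, with WT-HER2 on the left and Delta-HER2 on the right; filled points passed the adjusted p threshold and black bars are list medians. With WT-HER2 the filled points are SHC1 (0.30) and MUC1 (-0.88), and with Delta-HER2 filled points lie on both sides of 0 in every list, from -1.01 for MUC1 to 1.46 for UBASH3B.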

How the data were processed

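Total RNA of 9 MCF10A samples was read on whole-transcript arrays. The deposited log2 values were made by the authors with RMA (affy package, R 2.14), per the submitters' processing notes; RMA corrects background, normalizes by quantiles and summarises probes, which narrows differences of dim genes. No build is given in the sources used here. Of 32321 transcript clusters, 19158 had 1 gene symbol, 1388 several and 11775 none in the array annotation; Entrez numbers of 19128 matched RefSeq. The cluster with the highest mean stood for each gene, and no low-value filter was applied. LRIG3 also shares a cluster with other symbols, which was not used.

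Groups were compared with limma 3.58.1 (R 4.3.3), with 1 coefficient per group, all 9 arrays, two-sided moderated tests and Benjamini-Hochberg adjustment over 18404 genes, with calls at adjusted p below 0.05. The procedure was tested on simulated data. The replicate numbers were not taken as pairs, since deviations of same-numbered arrays correlated at -0.51 to 0.30 over genes. The members and lists were chosen with earlier results of these data known. Named are all members and, per list and comparison, up to 3 called genes with the smallest p; other names are marked as chosen after their values were seen. For ERBB2 and ERBB3 the 3 genes of most similar profile are also named. Listed genes without a cluster of their own (such as KRT17, TP63, CRK and RET) were not analysed here. Alternatives covered normalization, a low-value filter, cluster averaging, variance models, array weights, pairing, the groups fitted, a threshold of 0.01 and left-out arrays.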

Additional observations from a re-analysis of the deposited data

How the results depend on the processing

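The 3 counts of called members stayed at 1 for WT-HER2 and 6 for Delta-HER2 against control under every alternative run, and at 5 or 6 between the HER2 lines, where EGFR (-0.30) was the gene lost. Of 570 values of single members under alternatives, 563 stayed on their side of the threshold, 7 no longer passed and 0 called differences changed sign; all 7 were EGFR between the HER2 lines, also at a threshold of 0.01. Over all genes, 309 were called with WT-HER2 against control. The count was 736 with array weights (327 higher, 409 lower), 139 with the replicate block and 134 with only the 2 groups fitted. With 1 array left out it ranged from 126 to 279, and the lowest counts came without a control array (replicate 2, 129; replicate 3, 126) or a WT-HER2 array (replicate 1, 155; replicate 2, 152). With Delta-HER2 against control the leave-one-out range was 3805 to 5097, and between the lines 3328 to 4381. The replicate block ended the calls of EGFR between the lines, SHC1 with WT-HER2, GRB2 (0.0564), EPS15 (0.102), RAB7A (0.0731) and PSMD3 (0.0595) with Delta-HER2 against control, and EPS15 (0.114), PSMD3 (0.0975) and RAB7A (0.0621) between the lines; the other calls of members and list genes in the text passed with it. Of the 9 arrays, 1 had its best correlation with an array of the same number. With WT-HER2 against control, 1 other receptor tyrosine kinase was called after quantile normalization and with array weights, in place of 0. Calls over all genes were 383 and 736 there. With weights 1 gene of the ubiquitin ligase and phosphatase list was called too, in place of 0. ERBB4 has no value with the filter on low genes. Levels near the bound of 3.17, such as UBASH3B in control, leave the size of a change uncertain.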

Other observations

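The genes whose profiles were most like that of ERBB2, by Pearson correlation of log2 values over the 9 arrays among 13692 genes above background, were TIMP1 (r = 0.995), DUSP4 (0.992) and ITGA5 (0.992). TIMP1, a metalloproteinase inhibitor gene, had a control mean of 10.63, a WT-HER2 mean of 11.37 and a Delta-HER2 mean of 12.05. DUSP4, a MAP kinase phosphatase gene, had means of 5.82, 6.93 and 7.84, and the integrin gene ITGA5 had 7.00, 7.62 and 8.46. Those most like ERBB3 were PPFIBP2 (r = 0.998), the claudin gene CLDN7 (0.996) and FXYD3 (0.996), with means of 7.68, 7.30 and 6.40 for PPFIBP2 and 8.50, 8.06 and 7.09 for CLDN7. The arrays fall into 3 groups, so these correlations mainly restate group means and carry no test.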
